A study of Mus musculus with 37 samples.

Results

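The response to the highest dose of hexafluoropropylene oxide dimer acid (HFPO-DA), a short-chain perfluorinated ether acid, was examined in the liver of nursing dams. The members are the 4 dams given 5 mg/kg and the 5 dams given the vehicle, chosen by sex and dose from the labels, or 9 of the 37 mice in the data. Their comparison was fitted on all 18 dams, which include 5 given 0.1 mg/kg and 4 given 0.5 mg/kg. The study had left out a further dam at 5 mg/kg and another at 0.5 mg/kg for low sequencing depth. All dams were wild-type females of the outbred CD1 stock, given as Crl:CD1(ICR) in the study's methods, and were about 11 weeks old at the start. They received HFPO-DA in deionized water, or deionized water alone (0 mg/kg), once a day by gavage for 53 to 65 doses, beginning 14 days before mating and ending on lactation day 20 or 21. RNA was read by TempO-Seq, in which pairs of probes that anneal side by side on a transcript are ligated, amplified and counted, from formalin-fixed liver sections 4 to 6 µm thick that were scraped from slides. Each library is a separate dam. Dams are named control dam 1 to 5 and 5 mg/kg dam 1 to 4, and the values of a gene are listed in that order. The numbers carry no pairing.

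PPARα is a nuclear receptor that pairs with RXR and switches on genes for the uptake, transport and oxidation of fatty acids when fatty acids or related compounds bind it. In rodent liver, its activators are known to enlarge the peroxisome compartment and to raise the enzymes of peroxisomal β-oxidation and the Cyp4a ω-hydroxylases. The liver also makes most plasma proteins, among them complement, clotting factors and apolipoproteins, and clears foreign compounds through cytochrome P450 and conjugating enzymes.

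The 9 libraries held 7952605 to 11523373 counts and between 17029 and 18521 probes with at least 1 count, and the control and 5 mg/kg groups overlapped in both measures. All 16 pairs of dams within a group differed by more than sampling noise (chi-square per degree of freedom 25.2 to 71.1), so no library repeated another. Of 30146 probes, 17038 probes of 11922 genes had enough counts for the test, and values are CPM, the counts of a probe scaled to a common normalized library size. In bulk RNA, fewer cells of a type and less RNA per cell cannot be told apart. The summed CPM of 15 macrophage markers ran from 465.3 to 885.7 in the control dams and from 551 to 1201 at 5 mg/kg, and the smallest adjusted p among them was 0.24 (Aif1). The 17 stellate cell and fibrosis genes summed to 341.9 to 1286 against 455.4 to 1097, with Col4a1 raised, and the 13 endothelial markers to 777.2 to 914.4 against 621.9 to 796, with Fcgr2b lowered. Without 5 mg/kg dam 1 the call of Fcgr2b was lost (-0.41, adjusted p = 0.14), and without control dam 3 the stellate list had 3 raised genes. The 12 hepatocyte markers, which include albumin, summed to 39020 to 50250 CPM in control dams and 36040 to 41870 CPM at 5 mg/kg, and 5 of them were lowered. Of 10 neutrophil markers only Ly6g and Csf3r had enough counts, and their sum was 23.72 to 38.61 CPM in controls and 8.198 to 22.92 CPM at 5 mg/kg, without overlap. Their adjusted p were 0.161 and 0.676. The part of these markers in the results below was not tested.

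At 5 mg/kg, 1792 of the 11922 genes had at least 1 probe with an adjusted p under 0.10 (edgeR, quasi-likelihood F test, adjusted by Benjamini-Hochberg across the probes) and are called differentially expressed genes (DEGs). Of these, 803 had a raised and 990 a lowered probe. With all 37 mice in the fit 682 genes were called, and with library totals as the only scaling raised probes were 57.4% of those called, beside 45% here. The rest of the report follows the probe of each gene with the most counts. On these, 13.4% of 11911 genes were called, 5.97% raised and 7.46% lowered, and the groups did not overlap for 10.2%, with every 5 mg/kg dam above all control dams for 5.05% and below them for 5.13%. Raised DEGs had a median log2 fold change of 0.888 and lowered DEGs of -0.872, while the median over all genes was -0.03. Of 52 raised DEGs with a log2 fold change over 3, 43 had counts in the control dams, and of 61 lowered DEGs beyond -3, 21 had counts at 5 mg/kg. The other 40 lowered genes had no count in any 5 mg/kg dam and 21 to 578 counts in all over the control dams. Other probes of the called genes moved the same way in 781 of 901 cases. Of the 901, 292 were themselves called that way and 1 was called the opposite way.

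**Figure D1:**
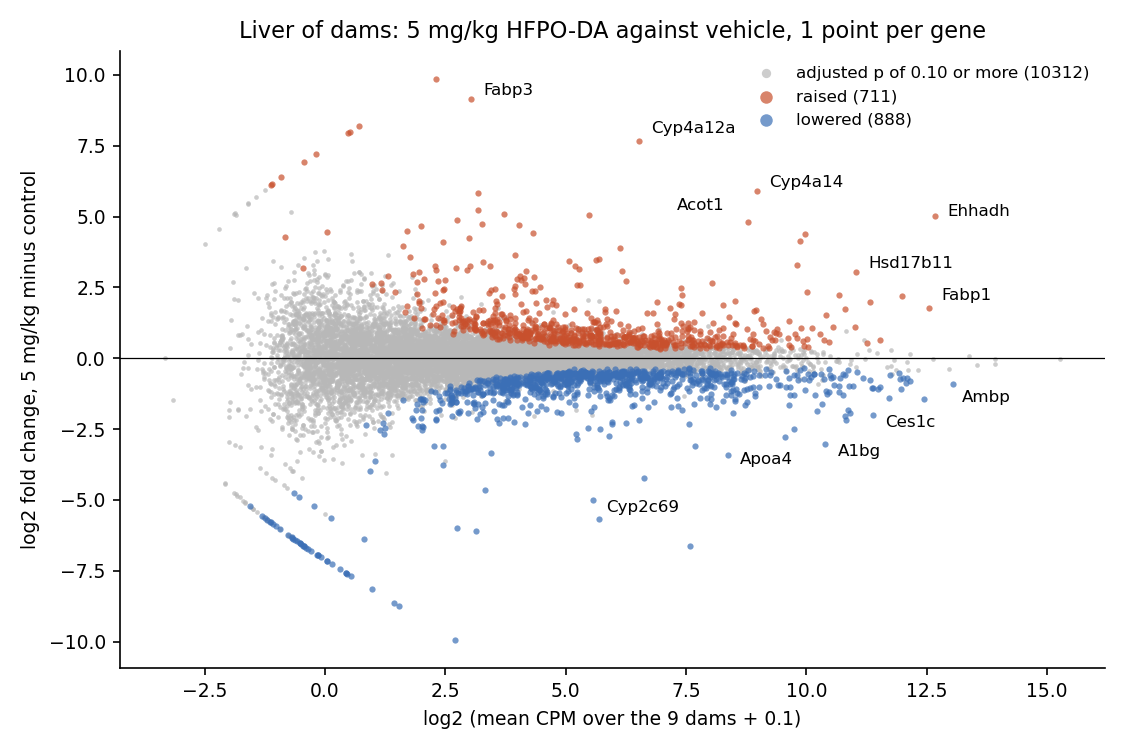
Each point is 1 of 11911 genes in the liver of dams. The horizontal axis is the log2 of the mean CPM over the 9 dams plus 0.1 and the vertical axis the log2 fold change of 5 mg/kg over control. Red points are the 711 raised and blue points the 888 lowered genes, and Ehhadh lies far above 0 at high abundance. The slanted rows at the left edge are genes with no count in any dam of a group, whose fitted fold changes depend on the prior count.

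Genes of fatty acid handling were among those with large rises. Ehhadh, the bifunctional enzyme of peroxisomal β-oxidation (chromosome 16, 21761287 to 21787807 in GRCm38), had 526, 463, 357, 481 and 353 CPM in the control dams and 13309, 12421, 17692 and 13204 CPM at 5 mg/kg. The groups were far apart, and 5 mg/kg dam 3 was the highest. The group means were 436 ± 77.2 CPM (SD, n = 5) and 14157 ± 2390 CPM (SD, n = 4). Ehhadh thus rose 32.5-fold, or by 5.02 ± 0.21 (standard error) on the log2 scale, with the smallest adjusted p of any probe (1.39e-13). Cyp4a12a, a fatty acid ω-hydroxylase, had 0.445, 1.49, 2.54, 0.512 and 0.0853 CPM in control dams and 283, 240, 217 and 82.0 CPM at 5 mg/kg (log2 fold change 7.66, adjusted p = 2.12e-06). Mogat1, a monoacylglycerol acyltransferase, had no count in any control dam and 9.05, 11.8, 11.1 and 11.9 CPM at 5 mg/kg, which was at least 36.4-fold higher against a floor of 3 counts per library. Fabp3, the heart-type fatty acid binding protein, had 1 count in control dam 2 and none in the other controls, and 13.2, 21.1, 13.2 and 25.05 CPM at 5 mg/kg. Its ratio was 927 with a counting interval of 166 to 36700.

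Other genes with large rises included Aqp3, a water and glycerol channel (log2 fold change 5.84, adjusted p = 0.000227), Cox6b2, a subunit of cytochrome oxidase (5.23, adjusted p = 2.53e-05), and Dab1, an adaptor of the reelin pathway (4.87, adjusted p = 0.00189). Pdk4, the kinase that turns off pyruvate dehydrogenase, had 0.334, 1.06, 2.64, 0 and 0.0853 CPM in control dams and 14.9, 17.1, 72.6 and 8.11 CPM at 5 mg/kg. Its rise was seen in all 4 treated dams but was far larger in 5 mg/kg dam 3 than in the others (log2 fold change 5.08, adjusted p = 0.000118).

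In peroxisomal β-oxidation, 15 of 25 genes were raised and 1 lowered, and the median log2 fold change of the list was 0.71 beside -0.03 over all genes. Acaa1b, a peroxisomal thiolase, had 12.03, 9.89, 6.16, 7.47 and 9.47 CPM in control dams and 83.5, 90.6, 120 and 108 CPM at 5 mg/kg. The groups did not overlap, and its mean rose from 9.004 ± 2.27 to 100 ± 16.5 CPM (SD, log2 fold change 3.48, adjusted p = 3.04e-09). Its paralog Acaa1a rose by 2.33, and reads of the pair could be split between their probes.

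The enzymes that prepare unsaturated chains for this pathway, Eci2, Ech1 and Decr2, rose by 1.59, 2.36 and 0.67 on the log2 scale, and the multifunctional enzyme Hsd17b4 by 1.08. Among the transporters that bring acyl-CoA into the organelle, Abcd3 rose by 1.61 (adjusted p = 1.2e-05) and Abcd2 by 1.48 (adjusted p = 0.0113).

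Fewer genes of peroxisome assembly passed the test, 4 raised and 1 lowered of 21, with a median of 0.02. Pex11a, which drives the division of peroxisomes, had 24.5, 16.8, 14.9, 13.3 and 13.1 CPM in control dams and 131, 117, 199 and 115 CPM at 5 mg/kg. It rose by 3.09 (adjusted p = 1.19e-08), while its relative Pex11g gave -0.25 (adjusted p = 0.93). Pex5, Pex16 and Pex19, which bring proteins into the organelle or its membrane, rose by 0.60 to 0.89, and the membrane channel protein Pxmp2 fell by 0.60. Of 13 genes that remove peroxide and superoxide, Gpx4 (0.73), Sod1 (0.56) and Gpx1 (0.42) were raised. Catalase, the peroxisomal enzyme that breaks down hydrogen peroxide, was not among them, since Cat had a log2 fold change of -0.11 (adjusted p = 0.772) with a mean of 1648 CPM in control dams. The calls of Sod1 and Gpx1 were each lost in 6 of the 9 fits that left out 1 dam. The list then had 1 raised gene without control dam 4 or 5 or without 5 mg/kg dam 2 or 3, and 5 without control dam 1.

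ω-oxidation, in which Cyp4 enzymes hydroxylate the far end of a fatty acid, had the highest list median, 3.50, with 7 of 11 genes raised and 2 lowered. Cyp4a14 rose from 11.4, 13.5, 38.8, 21.2 and 7.59 CPM to 992, 1035, 1317 and 1082 CPM (log2 fold change 5.90, adjusted p = 3.53e-10). Cyp4a31 rose by 4.12 and Cyp4a10 by 4.38 (adjusted p = 6.58e-10 and 6.88e-10), and Cyp4a32 and Cyp4a12b by 3.50 and 4.11. These genes are close paralogs on chromosome 4, so the division of reads among them is uncertain. All 6 tested Cyp4a genes moved the same way, which does not settle that division. Aldh3a2, the fatty aldehyde dehydrogenase, rose by 1.97. The lowered members were Cyp4f14, from 81.9 ± 27.3 to 14.7 ± 4.73 CPM (fell by 2.48, adjusted p = 1.2e-06), and Cyp4v3 (fell by 1.28, adjusted p = 0.000105), while Cyp4f15 had 0.29 (adjusted p = 0.401).

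Mitochondrial β-oxidation was raised in 14 of 17 genes, with a median of 1.05. All 17 log2 fold changes were positive, and the 5 mg/kg dams lay above all controls in 13. Hadha and Hadhb, the subunits of the trifunctional protein, rose by 1.20 and 1.67, with Hadha at 403, 329, 354, 345 and 302 CPM in control dams and 818, 679, 887 and 803 CPM at 5 mg/kg. The acyl-CoA dehydrogenases Acadm, Acadl, Acadvl and Acads rose by 0.96 to 1.31, and Etfdh, which passes their electrons on, by 1.31. Echs1, Acad10 and Hadh had log2 fold changes of 0.56, 0.44 and 0.14 and did not pass (adjusted p = 0.15, 0.251 and 0.656). All 6 tested genes of the carnitine shuttle, which carries acyl groups across the inner membrane, were raised. The number was 4 with all 37 mice, with the 9 dams alone, and without control dam 2 or 5 mg/kg dam 2 or 3. Cpt1b, the muscle form of the entry enzyme, had 3.45, 0.744, 2.05, 3.58 and 0.171 CPM in control dams and 42.2, 32.9, 54.1 and 39.1 CPM at 5 mg/kg (log2 fold change 4.40, adjusted p = 1.37e-05). Cpt1a, the liver form, had 9.02, 7.13, 5.87, 6.45 and 12.1 CPM against 12.4, 18.7, 18.1 and 8.996 CPM, where the groups overlapped (0.84, adjusted p = 0.0627, lost in 5 of 9 fits without 1 dam). Levels of different genes are not compared here, since CPM is not scaled to length or probe.

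The acyl-CoA thioesterases Acot1 and Acot2, which release free acids, rose by 4.79 and 5.04 (adjusted p = 2.76e-07 and 2.97e-06), and 3 of the 10 tested were raised. Acot1 had 33.96, 31.4, 49.98, 52.5 and 3.58 CPM in control dams and 871, 979, 1202 and 743 CPM at 5 mg/kg. Of 6 genes of ketone body synthesis 3 were raised, among them Acat1 (0.79).

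**Figure D2:**
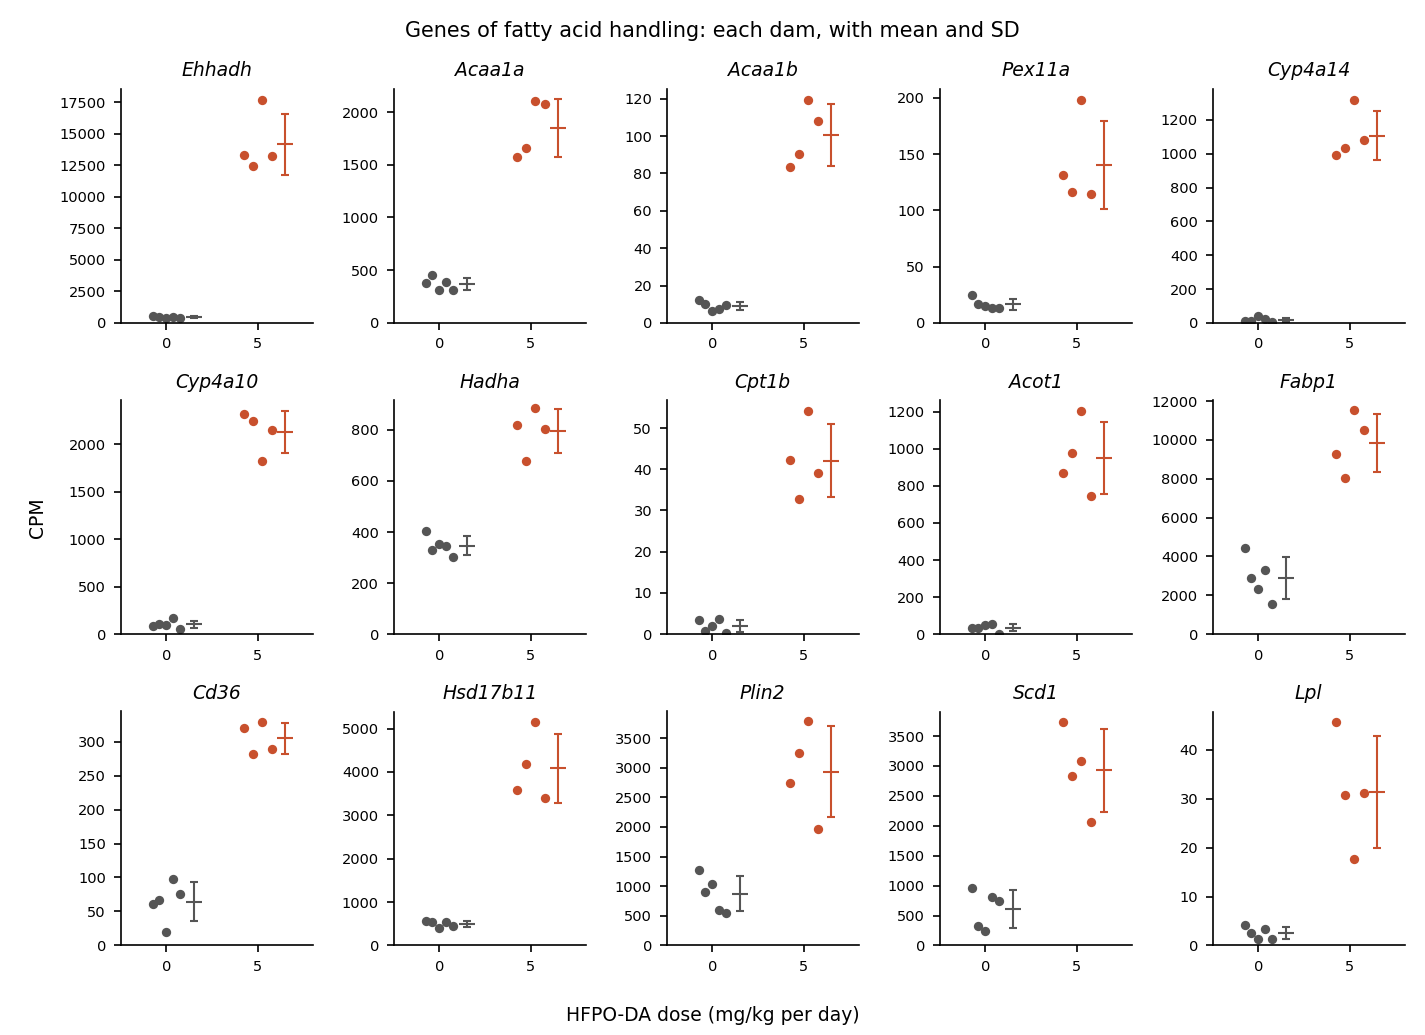
Each panel gives the CPM of 1 gene of fatty acid handling in each of 5 control dams (0, grey) and 4 dams at 5 mg/kg (red), with the group mean and SD beside the points. In all 15 panels every treated dam lies above every control dam, but the panels are called genes picked with their values known. Called genes with overlap, such as Cpt1a and Fasn, are not shown. Over all genes, every treated dam lay above every control dam for 5.05%.

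Uptake, activation and binding of fatty acids was raised in 13 of 19 genes and lowered in 2. Fabp1, the abundant liver fatty acid binding protein, had 4446, 2870, 2313, 3297 and 1577 CPM in control dams and 9256, 8068, 11548 and 10513 CPM at 5 mg/kg (log2 fold change 1.76, adjusted p = 5.02e-06). The fatty acid receptor Cd36 rose by 2.25, the transporter Slc27a1 by 3.13 and the acyl-CoA synthetases Acsl1, Acsl3 and Acsl5 by 1.12, 1.84 and 0.87. Slc27a5, which activates bile acids, was lowered (fell by 0.71, adjusted p = 0.00444), and so was Fabp7 (fell by 1.21, adjusted p = 0.0518, lost in 3 of 9 fits without 1 dam). Fabp4, known from adipocytes, was uneven. It had 17.4, 14.8, 31.8, 24.1 and 21.1 CPM in control dams and 242, 276, 20.8 and 39.0 CPM at 5 mg/kg, with 5 mg/kg dams 1 and 2 high and dam 3 inside the control range (2.72, adjusted p = 0.000522). Car3, the other called gene on the adipocyte list, fell by 1.64, and which cells its RNA came from was not tested. In Lipe, the remaining tested gene of that list, no change was called (0.49, adjusted p = 0.871).

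Among lipid droplet proteins and lipases, 8 of 16 genes were raised, and 15 of 16 had positive values. Hsd17b11, a droplet-bound dehydrogenase, had 559, 544, 402, 533 and 459 CPM in control dams and 3590, 4189, 5157 and 3402 CPM at 5 mg/kg (log2 fold change 3.03, adjusted p = 1.21e-10). The droplet coat protein Plin2 rose by 1.75, the droplet budding factor Fitm1 by 3.38, and the lipases Pnpla2 and Mgll by 1.61 and 1.23. Lipogenesis and desaturation had 9 raised and 1 lowered of 22 genes. Scd1, the Δ9 desaturase, had 968, 332, 233, 804 and 746 CPM in control dams and 3735, 2831, 3078 and 2065 CPM at 5 mg/kg (2.25, adjusted p = 5.63e-05), and Scd2, Me1, Fads2 and Elovl5 rose by 2.60, 1.89, 1.11 and 0.88. Fasn, the fatty acid synthase, overlapped between groups (0.93, adjusted p = 0.0392, lost in 2 of 9 fits without 1 dam), and its regulators Srebf1 and Mlxipl gave -0.11 and -0.22 (adjusted p = 0.932 and 0.598).

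In cholesterol synthesis the list median was 0.50, and Pmvk rose by 1.21 (adjusted p = 0.0103). Of its 24 genes 2 were raised and 0 lowered, or 8.33% called beside 13.4% of all genes. This count rested on control dam 3. Without that dam, 12 genes were raised and the median was 0.97, and in the other 8 fits without 1 dam the count was 1 or 2 (1 without control dam 2 or 4 or without 5 mg/kg dam 1 or 2).

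None of the PPAR transcripts was called. Ppara had a log2 fold change of 0.28 (adjusted p = 0.508), Ppard of -1.01 (adjusted p = 0.187) and Pparg of -0.32 (adjusted p = 0.917). Rxra, the main RXR of liver, had 1650, 1287, 1510, 1650 and 1312 CPM in control dams and 972, 1069, 891 and 1115 CPM at 5 mg/kg, without overlap. It fell by 0.55 (adjusted p = 0.0068). Of the 12 receptors and coregulators, Ncoa2, a coactivator, was the only other called gene (fell by 1.09, adjusted p = 0.0134). Rxra and Ncoa2 made up 16.7% of the list, beside 13.4% called of all genes.

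Promoters were read from RefSeq (GRCm38.p6, 250 bases before to 50 bases after the start) for the direct repeat DR1, in which 2 copies of AGGTCA are separated by 1 base of any kind. PPAR and RXR are known to bind it as a pair. Both strands were read, with up to 2 mismatches outside the spacer. A match was in 3.99% of 9181 tested genes with an entry, in 5.43% of 552 raised genes and in 5.64% of 691 lowered genes. In the lists for peroxisomal and mitochondrial β-oxidation it was in 2 of 19 and 2 of 15 genes. With up to 1 mismatch, a match was in 0.545% of all these genes, 0.362% of raised and 0.724% of lowered genes. In either list it was then in 0 genes. Of the listed genes that were called, the closest matches, with 1 mismatch, were before the raised Fabp1 and the lowered F7 and Asgr1. They are printed below with the match in capitals, on the plus strand of GRCm38.p6 and up to the earliest annotated start of the gene. In Fabp1 (chr6:71199629-71199826) and F7 (chr8:13025784-13026033) the repeat reads on the opposite strand, with the leftmost base of the capitals 67 and 34 bases before the RefSeq start, and in Asgr1 (chr11:70053874-70054084), a hepatocyte lectin, on the same strand, 152 bases before it.
Fabp1: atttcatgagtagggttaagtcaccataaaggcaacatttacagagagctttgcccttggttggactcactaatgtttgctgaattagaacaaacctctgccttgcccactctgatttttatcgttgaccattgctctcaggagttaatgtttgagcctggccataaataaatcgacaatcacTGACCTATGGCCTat
F7: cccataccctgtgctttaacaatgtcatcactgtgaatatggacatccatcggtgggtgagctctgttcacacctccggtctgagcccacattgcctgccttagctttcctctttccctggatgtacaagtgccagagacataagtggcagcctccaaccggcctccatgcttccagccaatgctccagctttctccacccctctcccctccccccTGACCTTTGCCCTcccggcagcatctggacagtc
Asgr1: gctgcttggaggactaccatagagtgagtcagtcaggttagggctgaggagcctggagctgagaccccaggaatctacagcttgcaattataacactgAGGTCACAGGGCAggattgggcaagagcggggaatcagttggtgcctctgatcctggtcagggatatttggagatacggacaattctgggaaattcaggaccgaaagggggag
The matches are a description of letters and not of binding.

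Plasma protein genes were described in lists for coagulation, complement, acute phase proteins and apolipoproteins, each with more lowered than raised members. In coagulation and fibrinolysis, 23 of 26 genes were lowered, with a median of -0.66, and all 26 had negative log2 fold changes. F7, which starts clotting with tissue factor, had 265, 188, 167, 213 and 222 CPM in control dams and 58.4, 64.0, 60.1 and 73.6 CPM at 5 mg/kg. The groups were well apart, and F7 fell by 1.72 (adjusted p = 1.15e-07). Kng1, the kininogen, and the factors F11, F13b and F2 fell by 1.04, 1.46, 0.99 and 0.77. The inhibitors moved with the factors, as Serpinf2, Serpina10, Serpinc1 and Pros1 fell by 0.79, 0.89, 0.47 and 0.69. Of the fibrinogen chains, Fga and Fgb fell by 0.60 and 0.69 (adjusted p = 0.0627 and 0.031), with 5 mg/kg dam 2 inside the control range for both and calls lost in 6 and 2 of 9 fits without 1 dam, and Fgg gave -0.12 (adjusted p = 0.834). Leaving out 1 dam at a time gave 18 to 24 lowered genes.

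Complement had 11 lowered of 28 genes, with a median of -0.41, and 4 genes had positive values. The number lowered was 8 to 13 when 1 dam was left out, and 8 without 5 mg/kg dam 4. C1s1, a protease of the classical pathway, had 444, 598, 437, 635 and 544 CPM in control dams and 149, 118, 123 and 160 CPM at 5 mg/kg (fell by 1.95, adjusted p = 4.02e-07), and its other probes fell by 1.66 and 1.70. C9 and Cfi fell by 1.65 and 1.04, Masp1 by 0.90 and Cfb by 0.60. The central component C3 had -0.40 (adjusted p = 0.214) at a mean of 4952 CPM in control dams. C1qa, C1qb and C1qc, made by macrophages, had positive values of 0.72, 0.31 and 0.50 that did not pass (adjusted p = 0.16, 0.389 and 0.236).

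Acute phase and carrier proteins split, with 14 lowered and 4 raised of 27. Ambp, one of the most abundant transcripts, had 9483, 10899, 10199, 11629 and 11315 CPM in control dams and 5683, 6164, 5475 and 5669 CPM at 5 mg/kg (fell by 0.90, adjusted p = 0.000201). Serpina3k, Itih1 and Ttr fell by 1.82, 1.40 and 0.69, and Alb gave -0.25 (adjusted p = 0.372). Serpina7, the thyroxine-binding globulin, rose from 11.7 ± 6.08 to 69.6 ± 18.5 CPM (2.57, adjusted p = 0.000227). The other raised members, Saa1, Saa2 and Hp, rested on 5 mg/kg dam 2. Saa1 had 175, 357, 168, 180 and 367 CPM in control dams and 117, 2359, 496 and 250 CPM at 5 mg/kg (1.69, adjusted p = 0.0363), and without that dam 0.21 (adjusted p = 0.818). Without it, Saa2 went from 1.87 to 0.38 (adjusted p = 0.707) and Hp from 1.05 to 0.54 (adjusted p = 0.124). Saa1 and Saa2 are near-identical, and their reads may be shared.

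Of 25 apolipoprotein and lipoprotein genes, 6 were lowered and 2 raised. Apoa4 (chromosome 9, 46240696 to 46243459) had 631, 500, 528, 615 and 492 CPM in control dams and 40.3, 50.01, 42.0 and 72.8 CPM at 5 mg/kg, and fell by 3.43 (adjusted p = 1.74e-08). Apoc3, Apof and Apoa5, all known to act on triglyceride or cholesterol transport, fell by 1.02, 1.04 and 1.18. Lpl, the lipase that draws fatty acids from lipoproteins and is low in adult hepatocytes, rose from 2.52 ± 1.20 to 31.3 ± 11.4 CPM (3.64, adjusted p = 2.19e-06), and the phospholipid transfer protein Pltp by 2.80. Without 5 mg/kg dam 2, 4 genes of this list were raised. Apob, Apoe and Apoa1 gave -0.11, -0.03 and -0.02 (adjusted p = 0.796, 0.96 and 0.98). Among hepatokines, liver proteins that act on other tissues, 6 of 12 were lowered and 3 had positive values. Lect2 had 441, 380, 418, 321 and 453 CPM against 106, 98.0, 135 and 144 CPM (fell by 1.74, adjusted p = 1.79e-07), while Fgf21, a known target of PPARα in fasting, was low in both groups (0.63, adjusted p = 0.842).

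**Figure D3:**
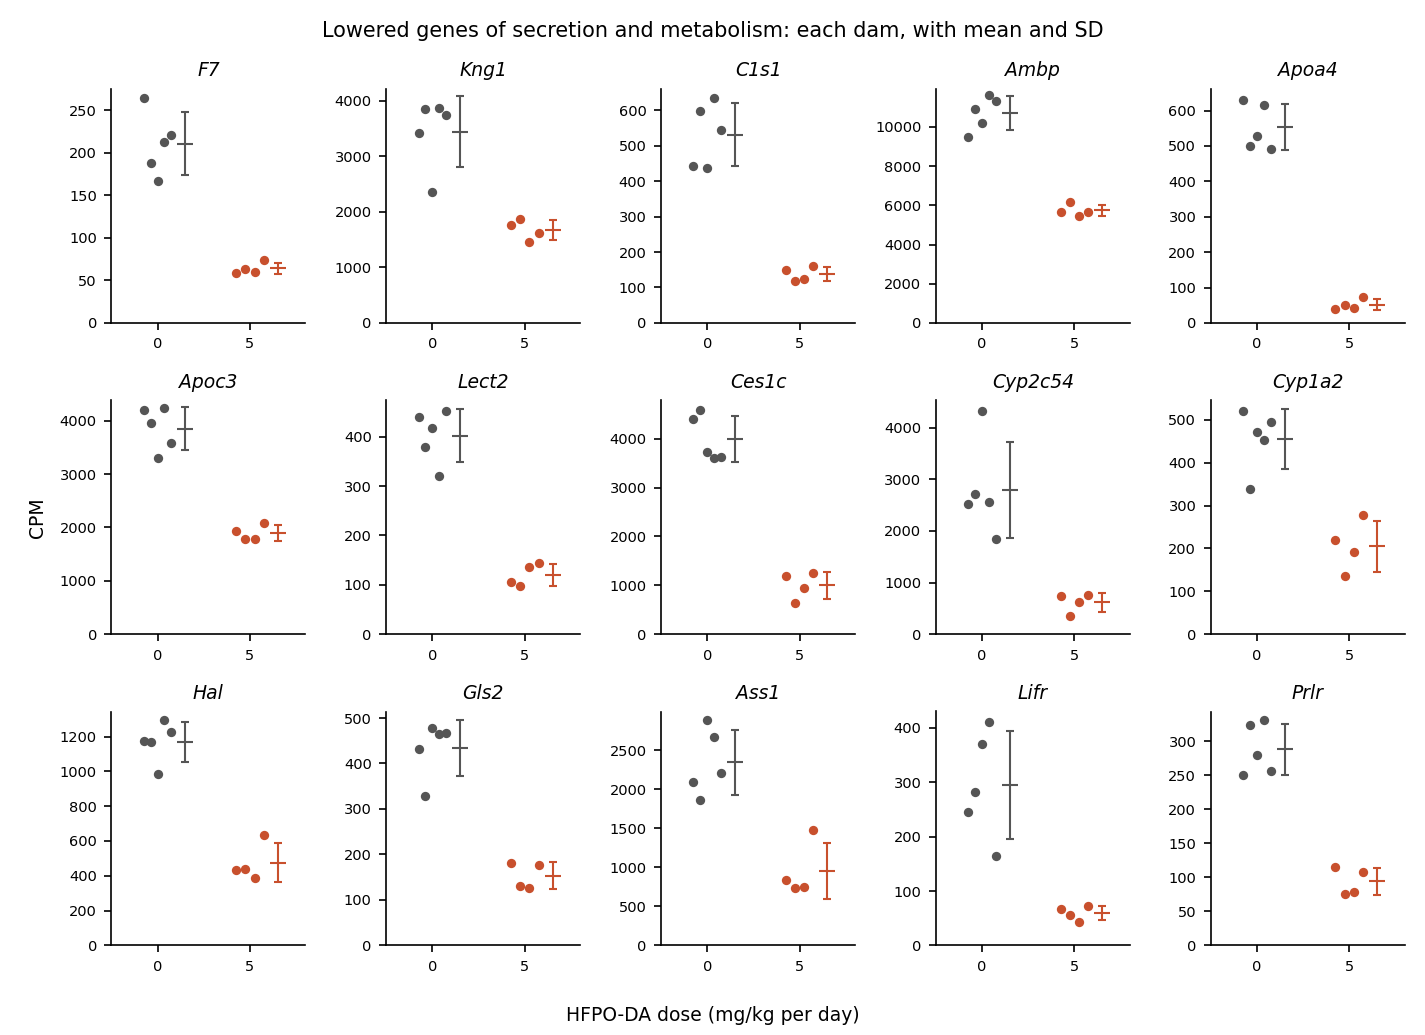
Each panel gives the CPM of 1 lowered gene in each of 5 control dams (0, grey) and 4 dams at 5 mg/kg (red), with the group mean and SD beside the points. The panels run from clotting factors and complement through apolipoproteins to enzymes of drug and amino acid metabolism and hormone receptors. The treated dams lie below all control dams in each panel, but the panels are called genes picked with their values known. Over all genes, every treated dam lay below every control dam for 5.13%.

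Phase I and II metabolism of foreign compounds had 19 lowered and 7 raised of 46 genes, with a median of -0.45. The number lowered was 15 to 21 when 1 dam was left out, and 15 without 5 mg/kg dam 2. Fmo5 rose by 0.98 (adjusted p = 0.00139). Cyp2c54 had 2524, 2723, 4332, 2553 and 1843 CPM in control dams and 735, 353, 620 and 755 CPM at 5 mg/kg, so every treated dam lay below every control. Cyp2c54 and Cyp2c50 fell by 2.18 and 2.47, Cyp1a2 by 1.15 and Cyp2e1 by 0.68, the last with overlap and its call lost in 2 of 9 fits without 1 dam. The epoxide hydrolases Ephx2 and Ephx1 rose by 1.54 and 1.65, with Ephx2 at 1008, 705, 656, 646 and 666 CPM against 1876, 1831, 2355 and 2496 CPM. Cyp2b10, a common readout of the receptor CAR, was not raised and fell by 1.19 with overlap (adjusted p = 0.055, lost in 3 of 9 such fits). The Cyp2c, Cyp2b, Ugt2b and Gst genes have close paralogs, and the split of reads among them is uncertain.

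Other genes with large falls were Lrtm1, at 10.4, 18.3, 10.8, 6.45 and 11.9 CPM in control dams and 0 in each 5 mg/kg dam (at least 38.9-fold lower against the floor of 3 counts per library), Nat8f6 (fell by 5.69, adjusted p = 1.52e-05), Gm10681 (fell by 6.08, adjusted p = 0.000205), Cyp2c69 (fell by 5.00, adjusted p = 4.26e-06), Cyp2c67 (fell by 4.23, adjusted p = 0.000125), Cyp3a16 (fell by 3.10, adjusted p = 0.000251), Ugt2a2 (fell by 3.34, adjusted p = 0.00222) and the estrogen sulfotransferase Sult1e1 (fell by 4.64, adjusted p = 0.00175). Cyp2c69 varied widely among control dams, from 16.2 to 168 CPM, and control dam 5 was the lowest, but no treated dam exceeded 4.41 CPM. The carboxylesterases split into 5 lowered and 4 raised of 14. Ces1c, an esterase found in plasma, fell from 3992 ± 466 to 1000 ± 278 CPM (by 1.997, adjusted p = 1.48e-07), and Ces2c rose from 69.7 ± 14.7 to 238 ± 39.3 CPM (1.77, adjusted p = 3.12e-07). Without 5 mg/kg dam 2, 3 carboxylesterases were lowered.

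Bile acid genes had 7 lowered and 2 raised of 21. The uptake carrier Slc10a1 (fell by 0.74), the export pump Abcb11 (fell by 0.59) and Baat, which joins bile acids to taurine or glycine (fell by 0.87), were lowered. Cyp7a1, the rate-limiting enzyme of bile acid synthesis, and Cyp8b1 gave 0.13 and 0.16 (adjusted p = 0.94 and 0.92). The efflux pump Abcc4 rose by 1.61 (adjusted p = 0.059) and Amacr by 0.56. The calls of Abcb11 and Abcc4 were each lost in 5 of the 9 fits without 1 dam, with the highest adjusted p without 5 mg/kg dam 2 (0.213 and 0.159). The number lowered was 4 without control dam 2 or 4 or without 5 mg/kg dam 2.

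In amino acid and urea metabolism, 19 of 34 genes were lowered, with a median of -0.54, and 5 had positive values. The number lowered was 14 to 21 when 1 dam was left out, and 14 without 5 mg/kg dam 3. Gls2, the liver glutaminase, had 433, 329, 478, 466 and 467 CPM in control dams and 181, 131, 126 and 178 CPM at 5 mg/kg (2.83-fold lower, adjusted p = 1.99e-06). The urea cycle enzymes Ass1, Asl and Otc fell by 1.30, 1.33 and 0.76, while Cps1 and Arg1 gave -0.65 and -0.37 (adjusted p = 0.165 and 0.149). Cth, of the sulfur amino acid pathway, fell by 1.56, Gnmt, which uses up methyl groups, by 1.08 and Hal, which opens histidine breakdown, by 1.30. In glucose metabolism, 6 of 23 genes were lowered and 4 raised. Pklr, the liver pyruvate kinase, fell from 44.3 ± 10.4 to 11.6 ± 2.80 CPM (by 1.93, adjusted p = 7.99e-05), Slc2a2, the glucose transporter, fell by 1.10 and Fbp1 by 0.77, while Pck1 and G6pc gave -0.55 and -0.91 (adjusted p = 0.445 and 0.18). Raised glucose genes numbered 2 without control dam 2, 4 or 5 or without 5 mg/kg dam 3.

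The growth hormone and IGF axis had 8 lowered and 1 raised of 20 genes and the lowest median of the lists plotted, -0.80. The receptors for leukemia inhibitory factor, prolactin and growth hormone fell, with Lifr at 245, 283, 370, 412 and 164 CPM in control dams and 66.6, 56.6, 42.5 and 72.7 CPM at 5 mg/kg (fell by 2.31, adjusted p = 6.04e-07). Prlr fell from 251, 324, 280, 331 and 257 CPM to 115, 75.0, 78.8 and 108 CPM (by 1.62, adjusted p = 1.19e-05), and Ghr by 1.05. Cux2, a transcription factor known as female-specific in mouse liver, fell by 2.32 (adjusted p = 0.004), and Igfbp2 rose by 1.91 (3 raised genes without control dam 3). Igf1 itself gave -0.22 (adjusted p = 0.617).

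**Figure D4:**
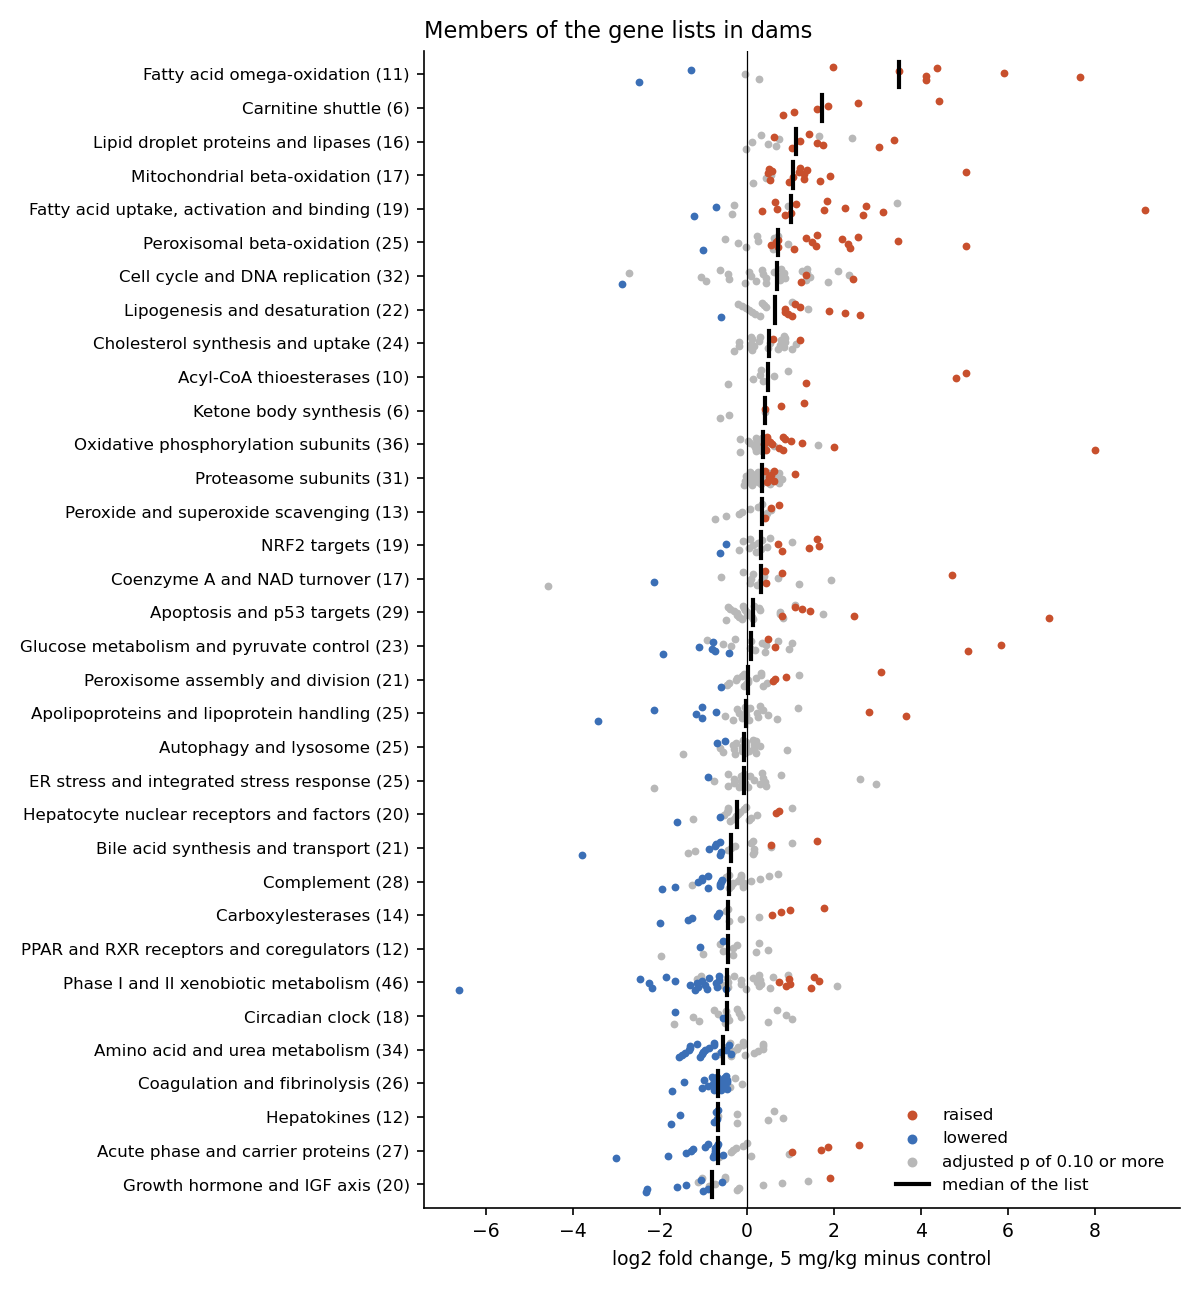
Each row is a gene list with the number of tested genes in parentheses, and each point 1 gene at its log2 fold change of 5 mg/kg over control in dams. Red points were raised and blue points lowered, grey points did not pass, and the black bar is the list median. Lists run from fatty acid ω-oxidation, with a median of 3.50, to the growth hormone and IGF axis, with -0.80. Genes without counts in a group, such as Ucp3, are at fitted values.

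Smaller changes were seen in energy and protein turnover. Of 36 genes of oxidative phosphorylation, 14 were raised, 34 had positive values and the median was 0.37. The uncoupling protein Ucp2 rose from 51.3 ± 19.1 to 205 ± 40.2 CPM (1.99, adjusted p = 2.33e-06), and Ucp3 had no count in any control dam and 1.10, 3.22, 6.01 and 1.59 CPM at 5 mg/kg (at least 9.87-fold higher). Cycs rose by 1.27 and Cox4i1 by 0.73. The number raised was 8 when all 37 mice were fitted together and 21 with library totals as the only scaling. Of 31 proteasome subunits 7 were raised and 28 had positive values, with a median of 0.36, and 4 were raised without control dam 2. In coenzyme A and NAD turnover, Vnn1, the pantetheinase, rose by 4.70 (adjusted p = 1.39e-05) and Acmsd, which steers tryptophan away from NAD, fell by 2.14 (adjusted p = 0.00252). Of the 17 genes of that list 4 were raised, and 1 without control dam 2 or without 5 mg/kg dam 3.

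Of 32 cell cycle and replication genes, Ccnd1, Mcm3 and Mcm6 were raised and Tk1 lowered, with 12.5% called beside 13.4% of all genes. Ccnd1, cyclin D1, had 8.91, 4.89, 2.35, 2.76 and 6.57 CPM in control dams and 33.5, 35.2, 27.7 and 13.4 CPM at 5 mg/kg (2.43, adjusted p = 0.000251). The calls of Mcm3 and Mcm6 were lost in 3 and 7 of the 9 fits without 1 dam, and Ccnd1 was the 1 raised gene of the list without control dam 4 or without 5 mg/kg dam 2 or 3. Tk1, thymidine kinase, fell by 2.86 (adjusted p = 1.63e-05), but its other probe gave -0.91 (adjusted p = 0.366). Of 29 apoptosis and p53 genes, 6 were raised, among them Gadd45b (2.46), Bax (0.81) and Fas (1.10), whose call was lost without 5 mg/kg dam 2 (0.75, adjusted p = 0.154). Cdkn1a gave 1.74 (adjusted p = 0.333). NRF2 targets had 5 raised and 2 lowered of 19, with Nqo1 at 0.54 (adjusted p = 0.449) and Hmox1 at 0.25 (adjusted p = 0.896). Without 5 mg/kg dam 2, 3 apoptosis genes and 3 NRF2 targets were raised. Of 25 genes of the endoplasmic reticulum stress response, Pdia6 alone was called (4%, beside 13.4% of all genes). It was lowered, while 11 genes of the list had positive values. Of 25 autophagy genes Atg5 and Lamp2 were lowered (8%) and of 18 clock genes 2, among them Nfil3 (11.1%), both shares below the 13.4% of all genes. Of 20 hepatocyte factors Foxa3 and Cebpb were raised and Nr5a2 and Onecut1 lowered (20%, beside 13.4% of all genes). The call of Onecut1 was lost in 3 of 9 fits without 1 dam. With all 37 mice in the fit none of these factors was called (adjusted p = 0.17, 0.134, 0.362 and 0.294). Without control dam 3, 6 clock genes were lowered. Among the 9 tested T, B and NK cell, 4 cholangiocyte and 4 erythroid markers the smallest adjusted p was 0.232 (Alas2).

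Some of the same genes at 0.5 mg/kg (n = 4), compared with the same control dams in the same fit, are given side by side. At that dose 44 genes were raised and 17 lowered. Ehhadh had a log2 fold change of 2.20 (adjusted p = 2.97e-07), Cyp4a14 of 4.36 (adjusted p = 1.46e-07), Pex11a of 1.40 (adjusted p = 0.00961) and Fabp1 of 1.04 (adjusted p = 0.0398). Apoa4 had -1.15 (adjusted p = 0.0595), F7 -0.38 (adjusted p = 0.415) and Lifr -0.44 (adjusted p = 0.575). Lect2 was lowered at this dose too (-0.82, adjusted p = 0.0327). Not all genes raised at 5 mg/kg were called at 0.5 mg/kg. Slc27a1 had 0.46 (adjusted p = 0.625), Acot2 1.23 (adjusted p = 0.513), Pdk4 1.38 (adjusted p = 0.631) and Cox6b2 0.50 (adjusted p = 0.935). The comparisons share the control dams, and the difference between doses was not tested.

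The response of dams was set beside that of sires, males of the same stock given 0 (n = 5) or 5 mg/kg (n = 4) for 84 to 85 doses, by an interaction in a fit of all 37 mice. Sex, age, number of doses and nursing cannot be told apart in this comparison. The interaction was called for at least 1 probe of 102 of 13004 genes, 76 with a higher log2 fold change in dams and 26 with a lower one. The count was 205 without 5 mg/kg sire 4, 187 without 5 mg/kg sire 2 and 232 with DESeq2. On main probes it was called for 81 of 12996 genes (0.623%), 57 of them higher in dams. Of these 57, 13 had no count in any sire at 5 mg/kg, whose libraries held 2101495 to 9098192 counts, so their values depend on the prior count. Cyp4a12a had 446 ± 167 CPM in control sires and 479 ± 46.8 CPM in treated sires (SD), so its log2 fold change was 0.10 in sires and 7.65 in dams (interaction 7.55, adjusted p = 5.51e-07). Cyp3a16 and Cyp2c69 had a mean under 1 CPM in control sires.

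Cyp2b9 was lower in treated dams and higher in treated sires. On the scale of this fit it went from 164 to 83.4 CPM in dams and from 2.90 to 43.6 CPM in sires (-0.97 and 3.91, interaction -4.89, adjusted p = 3.06e-06). The dam value had an adjusted p of 0.233 here and 0.00285 in the fit of dams alone. Slc46a3, a lysosomal carrier, and Ttc39c were lowered in sires by 4.68 and 2.37 and had 0.09 and 0.23 in dams (adjusted p = 4.76e-05 and 5.3e-05 for the interaction). Slc46a3 had only 0, 1.21, 0 and 0.155 CPM in the treated sires, so the size of its fall is uncertain. The monoacylglycerol lipase Mgll rose in both, by 1.23 in dams and 2.48 in sires (adjusted p = 0.0256). Ehhadh had 5.03 in dams and 5.51 in sires, a difference of -0.48 (standard error 0.37, adjusted p = 0.732).

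**Figure D5:**
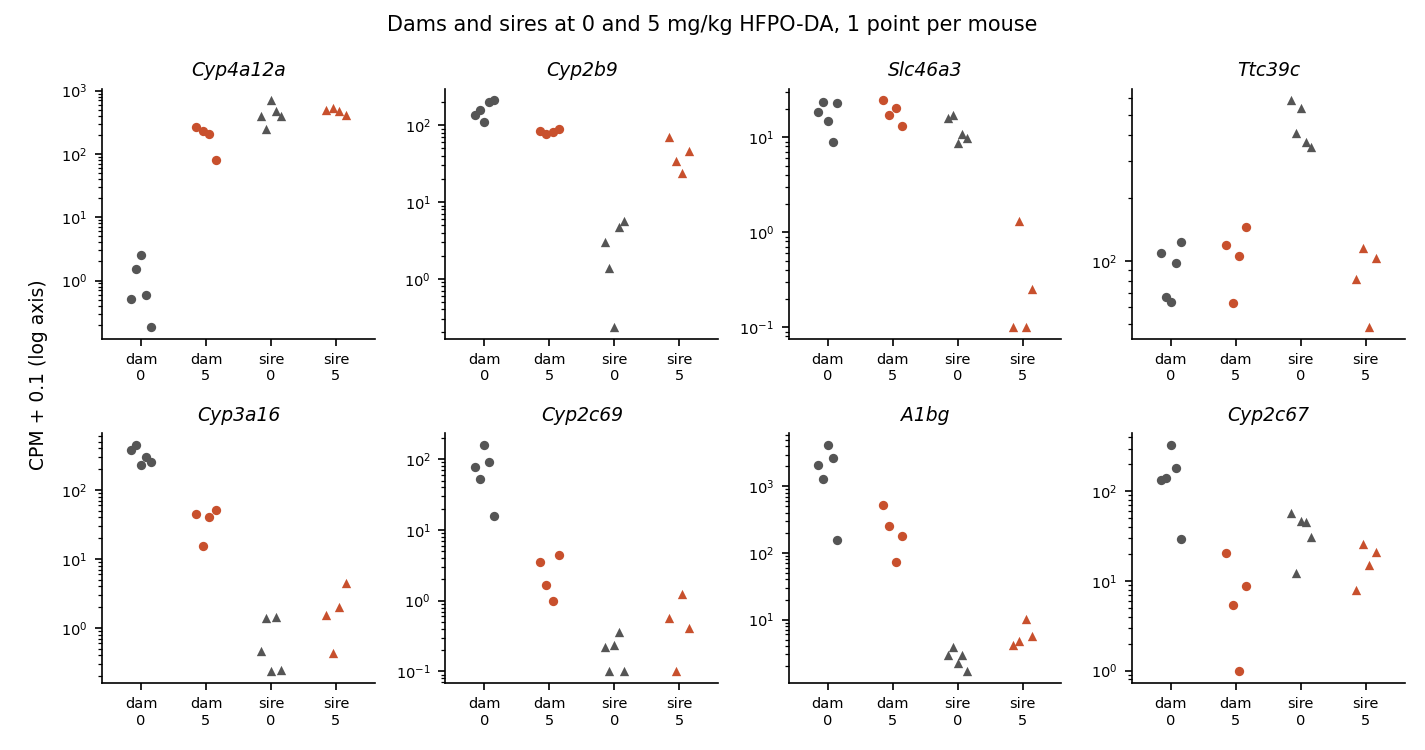
Each panel gives CPM plus 0.1 of 1 gene on a log axis in each dam (circles) and sire (triangles) at 0 mg/kg (grey) and 5 mg/kg (red), on the scale of the fit of all 37 mice. Cyp4a12a is near 1 CPM in control dams and near 446 CPM in control sires, and Cyp3a16 and Cyp2c69 have a mean under 1 CPM in control sires.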

How the data were processed

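The authors demultiplexed the reads with bcl2fastq 2.17.1.14, aligned them to the probe sequences with Bowtie and deposited raw counts of reads per probe for 37 mice, per the labels and the methods. No genome build is named there, so gene coordinates were taken from GENCODE M21 (GRCm38) and promoters from RefSeq (GRCm38.p6). Groups followed the labels of sex and dose. The counts of the 18 dams were filtered by filterByExpr, scaled by TMM (factors 0.9354 to 1.059 in the 9 dams compared) and fitted with edgeR 4.0.16 (R 4.3.3) by quasi-likelihood with 1 mean for each dose, and 5 mg/kg was compared with 0 mg/kg. Benjamini-Hochberg adjustment covered all probes, with a threshold of 0.10. CPM are counts scaled by the normalized library size, and the standard error is the log2 fold change divided by the root of the F statistic. A gene is shown by its probe with the most counts over the 37 mice. The interaction with sires used all 37 mice.

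The 43 gene lists hold 833 genes. The members, lists and tests were chosen with earlier results of these data known. Named genes were the 10 raised and 10 lowered with the largest change among called genes without overlap and with a mean of at least 10 CPM in the higher group, up to 4 called members per list, the PPAR and RXR genes, the 5 genes with the smallest interaction p, and further list members named after their values were seen. Some genes that met these rules are not reported here. Fold bounds used 3 counts per library. Ratios of low counts have 95% exact intervals, which cover counting error only. The scripts were tested on simulated data. Alternatives were other scalings (DESeq2 size factors, library totals), filters, a robust fit, the 9 dams alone, all 37 mice, summed probes, DESeq2 1.42.0, a threshold of 0.05 and leaving out each dam.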

Additional observations from a re-analysis of the deposited data

Results flagged for a closer look

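In 19 of 294 groups of 4 or 5 dams (6.46%), 1 dam stood apart from the rest by Dixon's criterion, beside the 1 in 20 that chance gives. Among raised genes, 5 mg/kg dam 3 stood apart with the highest Pdk4 (72.6 CPM, others 8.11 to 17.1) and Ehhadh (17692 CPM, others 12421 to 13309), and 5 mg/kg dam 2 with the highest Ucp2 (264 CPM, others 179 to 193). Control dam 1 had the lowest Gpx4 (72.9 CPM, others 88.5 to 94.3) and the highest Ephx2 (1008 CPM, others 646 to 705) and Uqcrfs1 (42.5 CPM, others 31.2 to 32.7). Control dam 5 had the highest Ucp2 of its group (84.3 CPM, others 38.7 to 51.4), and control dam 2 the only Fabp3 count (0.106 CPM).

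Among lowered genes, 5 mg/kg dam 4 stood apart with the highest Ass1 (1483 CPM, others 737 to 844) and 5 mg/kg dam 2 with the lowest Car3 (178 CPM, others 414 to 457). Control dam 3 had the highest Cbs (355 CPM, others 216 to 244) and Nfil3 (103 CPM, others 30.5 to 48.6), and control dam 4 the highest Acmsd (29.6 CPM, others 12.6 to 17.5), Pdia6 (311 CPM, others 242 to 260) and Onecut1 (39.7 CPM, others 9.19 to 14). In genes that were not called, 5 mg/kg dam 1 had the lowest Ly6g (6.61 CPM, others 20 to 21.8), 5 mg/kg dam 4 the lowest Ppara (52.4 CPM, others 79.2 to 84.4), control dam 3 the highest Ppard (56.9 CPM, others 8.13 to 11.8) and control dam 2 the lowest Rxrb (1.28 CPM, others 3.23 to 4.01).

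The difference of the log2 fold changes between dams and sires passed the test for 11 of 147 named genes. The 147 are the genes named by rule and leave out the further list members. Some of these were named for their small interaction p, so this share was raised by the choice. Over all main probes the difference passed for 81 of 12996 genes (0.623%). It was positive for Cyp4a12a (7.55), Slc46a3 (4.77), Ttc39c (2.6), Foxa3 (1.68), Cebpb (1.41) and the T cell marker Cd3d (8.02), which had no count in any sire at 5 mg/kg, so that its value depends on the prior count. It was negative for Cyp2c69 (-6.55), Cyp2b9 (-4.89), Cyp3a16 (-4.66), Cyp2c67 (-3.09) and Mgll (-1.25).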

How the results depend on the processing

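With all 37 mice in 1 fit, the number of genes called at 5 mg/kg was 682 (341 raised and 342 lowered) in place of 1792, and with only the 9 dams compared 640 genes were lowered in place of 990. Of the 839 probes called with all mice, 834 were also called in the fit of dams. Leaving out 1 dam gave 1368 (without control dam 4) to 1886 genes (without 5 mg/kg dam 4), with 613 to 837 raised and 756 to 1080 lowered. With library totals as the only scaling, raised probes were 57.4% of those called in place of 45%, and the median of all genes moved by 0.0809. The interaction was called for 232 genes by DESeq2 and 60 at an adjusted p under 0.05, in place of 102, and for 70 (without 5 mg/kg dam 3) to 205 genes (without 5 mg/kg sire 4) when 1 mouse was left out, with 187 without 5 mg/kg sire 2. The cause was not tested. No called value of a named gene changed sign, but the medians of 11 of 54 lists and families did under at least 1 alternative, among them peroxisome assembly (0.0242 to -0.00456 without 5 mg/kg dam 4), apolipoproteins (-0.0251 to 0.0582 with library totals) and glucose metabolism (0.0942 to -0.258 without 5 mg/kg dam 1). Of the values of named genes under the alternatives, 2652 kept their side of the threshold, 99 lost it and 3 gained it, and 105 of 105 interaction values kept it. Of 346 called members of lists and families, 252 were called in each of the 9 fits without 1 dam, and the others were lost in at least 1. No paired analysis was possible because the dams carry no shared numbers.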

Other observations

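Gene families taken by symbol, after their values were seen, are given here as a description. Of 69 ribosomal protein genes 29 were raised, with a median of 0.36, but the number was 12 with all 37 mice, 16 without control dam 4, 18 without 5 mg/kg dam 3 and 42 with library totals as the only scaling. Of 14 sulfotransferases 10 were lowered, with a median of -1.28, and 6 without 5 mg/kg dam 2 or 3. Cyp2c had 9 lowered of 14 (median -1.28), Cyp3a 4 of 8 (median -1.60), Cyp2d 4 of 8 (median -0.79), Ugt2 5 of 9 (median -0.97) and the Serpina1 genes, which encode α1-antitrypsins, 4 of 4 (median -1.25). The major urinary proteins had 1 lowered gene of 14, Mup3. The Cyp2c, Cyp3a, Cyp2d, Ugt2, Serpina1 and Mup families hold close paralogs, and how reads divide among them is uncertain.

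The order of the dams differed between gene groups. At 5 mg/kg, dam 3 was the highest in 11 of 15 raised genes of peroxisomal β-oxidation and in 10 of 14 of mitochondrial β-oxidation, and dam 1 in 8 of 9 raised genes of lipogenesis. Dam 4 was the highest of the treated dams in 16 of 19 lowered genes of amino acid metabolism and in 7 of 7 lowered bile acid genes. Dam 2, with the highest Saa1 and Hp, was also the highest in 9 of 14 lowered acute phase genes and the lowest in 15 of 19 lowered genes of xenobiotic metabolism. Among control dams, dam 3 was the lowest in 15 of 23 lowered coagulation genes and the highest in 7 of 7 raised proteasome genes. Genes of 1 list in 1 dam are not independent, and no test was made.

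In all, 71 tested genes had no count in any 5 mg/kg dam, of which edgeR called 40 and DESeq2 48 lowered, and 19 had no count in any control dam, of which 9 were called raised.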
